A study of Mus musculus with 6 samples.

Results

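Endothelial genes were examined across 6 RNA pools of macrophages from mouse fat. The set was 37 genes that mark the lining of blood vessels: junction proteins, receptors for vessel growth factors, transcription factors, transport proteins and genes of haemostasis and leukocyte capture. They were found by gene symbol among the transcript clusters of the array, a cluster being the probe set that stands for a gene or transcript, and 34 of the 37 had a cluster that carried their symbol alone, out of 30142 genes measured that way. The other 3, Rasip1, Egfl7 and Cyyr1, lay in clusters that carry several symbols and were not analysed here. Each of the 34 genes had 1 cluster.

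The material was F4/80+ cells of epididymal fat. The mice were C57BL/6J males, 22 weeks old, and from the age of 6 weeks they had eaten normal chow (NCD) or, in the other group, a 60% fat diet (HFD), in both cases over 16 weeks. Fat was digested with collagenase, the stromal vascular fraction was kept, and cells bound by a PE-labelled antibody to F4/80, the macrophage surface protein encoded by Adgre1, were taken by magnetic selection. Each diet had 3 pools, numbered 1 to 3 (NCD1, HFD1 and so on) and titled as biological replicates, of cells from 20 mice for an NCD pool and 10 mice for an HFD pool. Total RNA (100 ng a pool) was measured on 1 Affymetrix array per pool as log2 expression, and no value belongs to a single mouse. Values are listed in the order of pools 1, 2 and 3 of each diet. The pools were made from cells held by an antibody and not from sorted endothelium, which limits them as a model of fat vessels.

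Endothelial cells line blood vessels and seal them through junctions built on VE-cadherin (Cdh5). They respond to vascular endothelial growth factors through tyrosine kinase receptors (Kdr, Flt1, Flt4) and to angiopoietins through Tek, and their identity is held by ETS, SOX and Notch-linked transcription factors. In fat they deliver lipid and oxygen to adipocytes, and macrophages lie close along the capillaries.

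Macrophage markers were detected on all 6 arrays. The 10 macrophage markers measured, among them Csf1r, Cd68 and Mertk, lay above the background level of 6.23 log2 on every array. That level is the 95th percentile of 23 background probe sets. The mean level of the 10 markers was 13.59 on NCD3 and 14.23 to 14.40 on the other pools. The 34 endothelial genes had mean levels of 13.39 on NCD3 and 10.11 to 12.88 on the other pools. Over all 65956 transcript clusters, with or without a symbol, pools of the same diet correlated at 0.985 to 0.993 for NCD and 0.9947 to 0.9952 for HFD. Pools of different diets correlated at 0.976 to 0.988. The median standard error of a diet difference over all genes was 0.118; precision is limited by having 3 arrays a diet. Of the 34 endothelial genes, 33 had a mean above the background level, and Mmrn1 did not.

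For the endothelial genes the pools did not fall cleanly by diet. Taken as the mean deviation of the 34 genes from each gene's own mean over the 6 arrays, NCD3 stood at 1.84 log2 and NCD2 at 1.33, while NCD1 stood at −0.28. Among the HFD pools, HFD1 stood at −0.13, HFD2 at −1.31 and HFD3 at −1.44. NCD1 was thus low among the NCD pools and HFD1 high among the HFD pools, and the 2 lay close to each other. Results are given with both pools in the fit, and without a pool where leaving it out moved a call or a count.

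**Figure D1:**
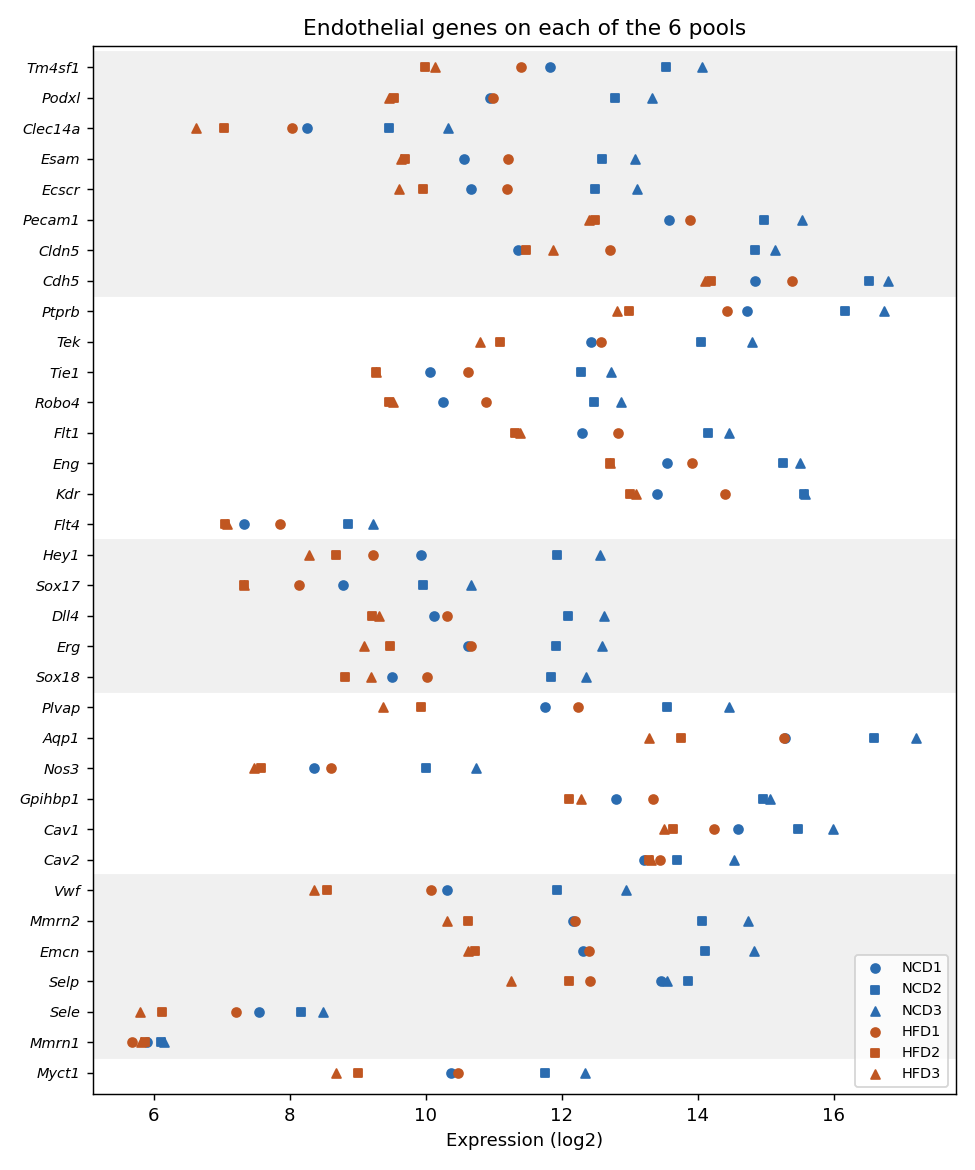
Log2 expression of the 34 endothelial genes on each of the 6 arrays, with 1 row per gene, 1 point per pool and the diets in separate colours. NCD3 was the highest pool for 33 of the 34 genes, and NCD1 was the lowest NCD pool for all 34.

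All 34 endothelial genes had a lower mean in HFD than in NCD, and 2 of them, Selp and Sox17, passed the test. The differences ran from −2.75 to −0.26 log2 (HFD minus NCD), with a median of −1.91, a 3.75-fold lower level in HFD, beside a median of 0.01 over all genes. At an adjusted p below 0.05 (limma, Benjamini-Hochberg over all 30142 genes), 2 of 34 were called lower (5.88%) and 0 higher, against 2.87% of all genes lower and 4.96% higher. At an unadjusted p below 0.05, 30 of the 34 were lower, against 11.1% of all genes, and 0 were higher. A difference of at least 2-fold was found in 32 of the 34, against 3.71% of all genes; all 32 were among the 33 members above background, against 6.90% of the genes above background. In bulk RNA, fewer cells of a type and less RNA per cell cannot be told apart.

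The standard errors of these differences were wide, 0.10 to 0.99 with a median of 0.65, against the 0.118 over all genes. Without NCD1, 32 of 34 genes were called lower, against 7.68% of all genes, and the median difference was −2.66. The 2 not called were Cav2 (−0.77, adjusted p = 0.102) and Mmrn1 (−0.34, adjusted p = 0.0652). Without NCD2, NCD3 or HFD2, limma called 0 of 34 lower at the adjusted threshold, against 0.524%, 2.85% and 0.415% of all genes, while 15, 16 and 17 were lower at an unadjusted p below 0.05. Without HFD3, 1 gene was called (0.411% of all genes), and without HFD1, 2 were (1.05%). The levels of all HFD pools lay below those of all NCD pools for 11 of the 34 genes (32.4%), against 13.0% of all genes. Without Mmrn1, whose mean lay below background, it was 10 of 33, against 17.5% of the genes above background.

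**Figure D2:**
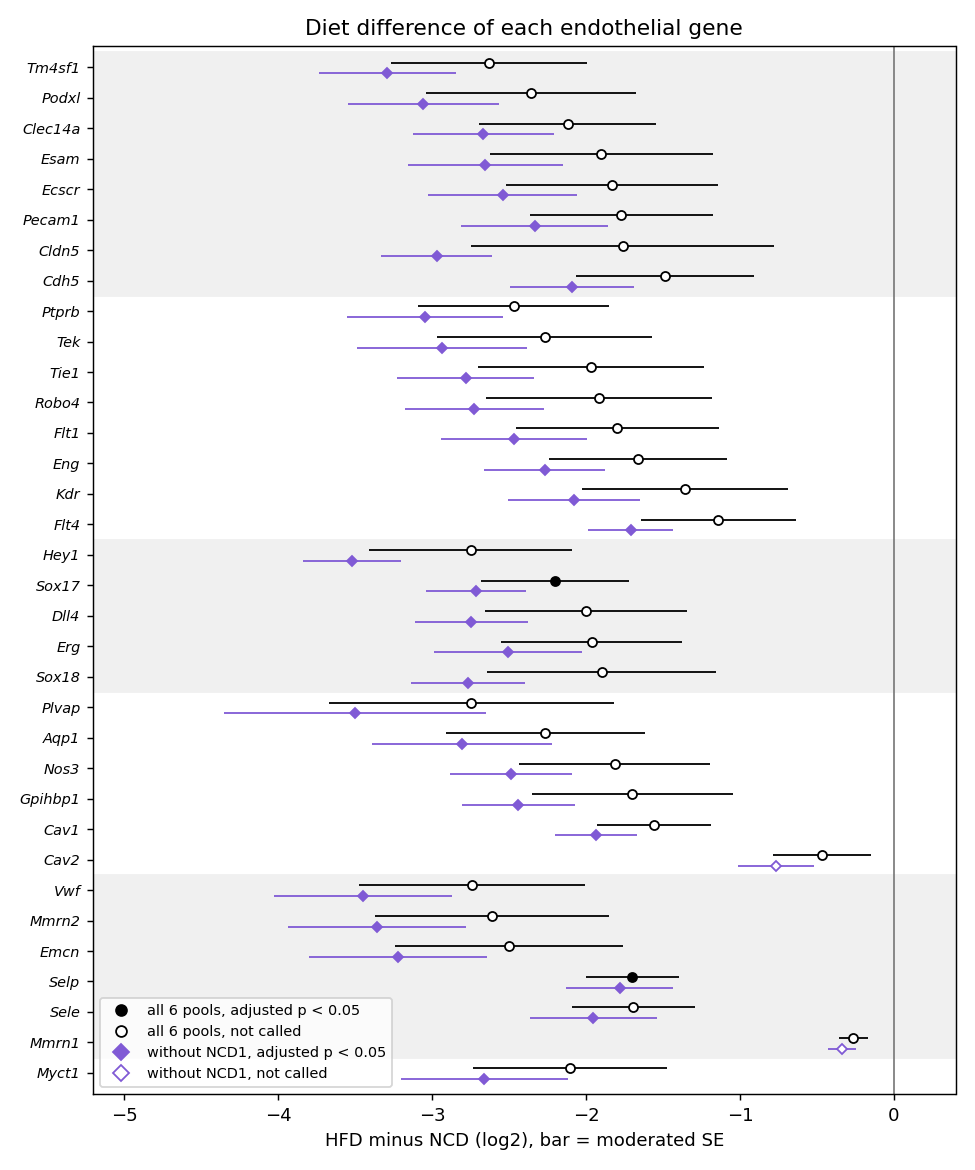
Difference between the diets (HFD minus NCD on the log2 scale, bars for the moderated standard error) for each endothelial gene, fitted with all 6 arrays (circles) and without NCD1 (diamonds); filled symbols passed the adjusted threshold, and shading parts the roles. All 34 differences lie below 0 in both fits, and those without NCD1 run from −3.52 to −0.34. NCD1 was the lowest NCD pool for all 34 genes. In the fits without NCD2, NCD3 or HFD2, not drawn, 0 of the 34 were called.

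Promoter sequence was compared as a description of the endothelial genes. Its part in their movement across the pools was not tested. RefSeq (GRCm38.p6) gave a promoter for 20 of the 34 genes, 23 promoters in all, and the 250 bases before each transcript start were searched on both strands for motifs of endothelial transcription factor families. The ETS motif CAGGAAG was found in the promoters of 4 genes (Emcn, Erg, Robo4 and Sele), 17.4% of the 23 promoters against 10.8% of 32851 promoters of the same length. The 4 are shown with Selp, one of the 2 genes called lower, which held none of the motifs; capitals mark the matches, on either strand.
Emcn: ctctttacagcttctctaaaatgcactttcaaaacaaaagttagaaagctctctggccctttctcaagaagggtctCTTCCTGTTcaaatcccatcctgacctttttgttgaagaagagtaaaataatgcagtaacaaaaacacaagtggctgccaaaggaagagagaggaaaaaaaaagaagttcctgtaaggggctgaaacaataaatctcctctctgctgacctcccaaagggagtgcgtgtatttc
Erg: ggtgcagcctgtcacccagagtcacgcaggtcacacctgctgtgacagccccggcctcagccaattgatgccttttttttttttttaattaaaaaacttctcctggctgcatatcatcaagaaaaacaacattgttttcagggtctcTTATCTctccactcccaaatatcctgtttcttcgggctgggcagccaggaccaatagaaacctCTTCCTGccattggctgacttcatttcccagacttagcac
Robo4: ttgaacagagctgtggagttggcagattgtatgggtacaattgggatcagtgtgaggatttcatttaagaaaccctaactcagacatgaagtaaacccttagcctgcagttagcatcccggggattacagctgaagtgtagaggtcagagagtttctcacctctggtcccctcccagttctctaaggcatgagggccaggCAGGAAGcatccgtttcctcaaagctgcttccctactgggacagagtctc
Sele: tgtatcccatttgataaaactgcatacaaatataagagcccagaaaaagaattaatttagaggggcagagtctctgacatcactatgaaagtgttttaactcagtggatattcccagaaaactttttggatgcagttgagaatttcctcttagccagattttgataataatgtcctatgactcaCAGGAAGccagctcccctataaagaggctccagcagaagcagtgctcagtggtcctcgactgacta
Selp: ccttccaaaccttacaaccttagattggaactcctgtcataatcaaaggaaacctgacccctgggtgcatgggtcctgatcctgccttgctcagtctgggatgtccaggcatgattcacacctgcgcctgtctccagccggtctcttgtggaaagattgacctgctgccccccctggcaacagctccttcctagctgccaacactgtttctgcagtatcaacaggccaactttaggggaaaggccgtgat
They lie at chr3:137340828-137341077 (Emcn, plus strand), chr16:95459349-95459598 (Erg, minus strand), chr9:37401722-37401971 (Robo4, plus), chr1:164047984-164048233 (Sele, plus) and chr1:164115014-164115263 (Selp, plus). Each is directly upstream of a transcript start of its gene. For Erg it is one of 3 starts and the most downstream of them, and the other 2 were without a match. In Emcn the ETS match overlaps a match to the FOX:ETS motif AACAGGAA, which 4.35% of the 23 promoters and 2.25% of all promoters held. In Erg the capitals also mark the GATA motif AGATAA, found in 8.70% of the 23 against 9.99% of all; Myct1 was the other gene with it. The SOX motif ACAAAG stood in Eng and Tek, 8.70% against 16.5%, and the ETS motif CCGGAAG in 0 of the 23 against 6.91%. A match describes these letters and is not a measured binding site.

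The junction and adhesion genes held 8 analysed members, of which 0 passed the test (7 at an unadjusted p below 0.05, limma); their differences had a median of −1.86. Cdh5, the adhesive core of endothelial junctions, measured 14.84, 16.52 and 16.79 in NCD and 15.39, 14.19 and 14.11 in HFD. Its difference was −1.49 ± 0.58 (adjusted p = 0.177), and the diets overlapped because HFD1 lay above NCD1. Pecam1, an adhesion molecule of endothelium that platelets and some leukocytes also carry, measured 13.57, 14.98 and 15.54 in NCD and 13.89, 12.49 and 12.40 in HFD. It showed the same order of pools as Cdh5 down to the lowest, HFD3, with a difference of −1.77 ± 0.59 (adjusted p = 0.128). Cldn5, a tight junction protein, measured 11.36, 14.84 and 15.13 in NCD and 12.71, 11.48 and 11.86 in HFD. NCD1 was its lowest pool of all, below every HFD pool, and its range over NCD, 3.77 log2, was the widest of the 34. Its difference was −1.76 ± 0.99 (adjusted p = 0.34).

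Tm4sf1, a tetraspanin-like membrane protein of endothelium, measured 11.82, 13.54 and 14.06 in NCD and 11.40, 9.99 and 10.14 in HFD. The diets did not overlap, and the difference was −2.63 ± 0.64 (adjusted p = 0.0566). Clec14a, a C-type lectin of the endothelial surface, measured 8.25, 9.46 and 10.32 in NCD and 8.04, 7.03 and 6.62 in HFD, with a difference of −2.12 ± 0.57 (adjusted p = 0.0766). These 2 were the members of the group without overlap. Without NCD1 all 8 junction genes were called lower, against 7.68% of all genes, with differences from −3.29 to −2.09. Without NCD2, NCD3 or HFD2, 0 were called.

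The receptor group also held 8 genes with 0 called (6 at an unadjusted p below 0.05, limma), and its median difference was −1.86. Kdr, the main signalling receptor for Vegfa, measured 13.40, 15.56 and 15.59 in NCD and 14.40, 13.00 and 13.09 in HFD. NCD2 and NCD3 were almost level, HFD1 lay above NCD1, and the difference was −1.35 ± 0.67 (adjusted p = 0.279). Flt4, the receptor for Vegfc, measured 7.33, 8.85 and 9.22 in NCD and 7.86, 7.05 and 7.08 in HFD, with a difference of −1.14 ± 0.50 (adjusted p = 0.226). Its levels on NCD1 and HFD2 to HFD3 lay close together.

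Tek, the angiopoietin receptor, measured 12.42, 14.05 and 14.80 in NCD and 12.58, 11.10 and 10.80 in HFD. Its difference was −2.27 ± 0.70 (adjusted p = 0.105). Tie1, a receptor that pairs with Tek, measured 10.06, 12.28 and 12.72 in NCD and 10.63, 9.27 and 9.26 in HFD, and its difference was −1.97 ± 0.74 (adjusted p = 0.162). In both, HFD1 was above NCD1, so the diets overlapped. Ptprb, the phosphatase VE-PTP that acts on Tek and the junctions, measured 14.73, 16.17 and 16.74 in NCD and 14.44, 12.99 and 12.81 in HFD. It was the receptor gene without overlap, with a difference of −2.47 ± 0.62 (adjusted p = 0.0627). Eng, a co-receptor for BMP ligands, measured 13.55, 15.25 and 15.50 in NCD and 13.92, 12.70 and 12.71 in HFD, with a difference of −1.66 ± 0.58 (adjusted p = 0.138). Without NCD1 all 8 receptor genes were called lower, against 7.68% of all genes, with differences from −3.04 to −1.71. Without NCD2, NCD3 or HFD2, 0 were called.

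Of the 5 transcription factor and Notch genes, 1 was called, and the median difference was −2.00. Without NCD1 all 5 were called lower, against 7.68% of all genes, and without NCD2, NCD3 or HFD2 0 were. Sox17, a SOX factor of arterial endothelium, measured 8.78, 9.96 and 10.66 in NCD and 8.14, 7.33 and 7.32 in HFD. It fell in HFD by 2.20 ± 0.48 (adjusted p = 0.0433) on the log2 scale, and its diets did not overlap; the smallest gap was between NCD1 and HFD1. The call held without NCD1 (−2.71, adjusted p = 0.00717) and was lost on leaving out any other single pool, with adjusted p values of 0.0694 to 0.168. Hey1, a Notch target, measured 9.93, 11.93 and 12.56 in NCD and 9.22, 8.68 and 8.28 in HFD. Its difference, −2.75 ± 0.66 (adjusted p = 0.0552), was the largest of the 34, and its diets did not overlap. Sox18, a related SOX factor of vessels and lymphatics, measured 9.50, 11.85 and 12.36 in NCD and 10.01, 8.80 and 9.20 in HFD, with a difference of −1.90 ± 0.74 (adjusted p = 0.18). HFD1 lay above NCD1 for Sox18.

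The 6 genes of caveolae, transport and nitric oxide had 0 called (5 at an unadjusted p below 0.05, limma) and a median difference of −1.76. Without NCD1, 5 of the 6 were called lower, against 7.68% of all genes, and without NCD2, NCD3 or HFD2 0 were. Cav1, the main coat protein of caveolae, which adipocytes also make, measured 14.60, 15.47 and 15.99 in NCD and 14.24, 13.64 and 13.50 in HFD. The diets did not overlap, and the difference was −1.56 ± 0.37 (adjusted p = 0.0547). Aqp1, a water channel of capillary endothelium and red cells, measured 15.29, 16.60 and 17.22 in NCD and 15.27, 13.76 and 13.28 in HFD, with a difference of −2.26 ± 0.65 (adjusted p = 0.0874). Its diets were parted by only the small gap between NCD1 and HFD1. Plvap, which forms the diaphragms of caveolae and fenestrae, measured 11.75, 13.55 and 14.47 in NCD and 12.23, 9.94 and 9.37 in HFD. Its range over HFD, 2.87 log2, was the widest of the 34, and its difference was −2.75 ± 0.92 (adjusted p = 0.128). Nos3, endothelial nitric oxide synthase, measured 8.35, 10.00 and 10.73 in NCD and 8.60, 7.57 and 7.47 in HFD, with a difference of −1.81 ± 0.62 (adjusted p = 0.133).

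The 6 haemostasis and leukocyte-capture genes had 1 called, a median difference of −2.10 and 4 without overlap. Without NCD1, 5 of the 6 were called lower, against 7.68% of all genes, and without NCD2, NCD3 or HFD2 0 were. Selp, the P-selectin that captures leukocytes and is also stored in platelets, measured 13.46, 13.86 and 13.55 in NCD and 12.42, 12.11 and 11.25 in HFD. Its NCD pools were more level (SD 0.21, n = 3) than those of any other member above background, and it was the only one of the 34 whose highest pool was not NCD3. It fell in HFD by 1.70 ± 0.30 (adjusted p = 0.0244) on the log2 scale, with all HFD pools below all NCD pools. The call held without NCD1, HFD1 or HFD3 and was lost without NCD2 (adjusted p = 0.0973), NCD3 (0.0523) or HFD2 (0.0865). Vwf, which tethers platelets and is stored in endothelium and platelets, measured 10.31, 11.94 and 12.94 in NCD and 10.08, 8.54 and 8.35 in HFD. The diets did not overlap, and the difference was −2.74 ± 0.74 (adjusted p = 0.0745).

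Sele, the E-selectin of activated endothelium, measured 7.55, 8.16 and 8.49 in NCD and 7.21, 6.12 and 5.79 in HFD. Its diets did not overlap, HFD2 and HFD3 lay below the background level, and the difference was −1.69 ± 0.40 (adjusted p = 0.0538). Sele was called without NCD1 (adjusted p = 0.0292) or HFD1 (0.0311). Emcn, a sialomucin of capillaries and veins, measured 12.31, 14.11 and 14.82 in NCD and 12.40, 10.72 and 10.61 in HFD, with a difference of −2.50 ± 0.74 (adjusted p = 0.0949). Mmrn2, a matrix protein of the endothelial surface, measured 12.16, 14.06 and 14.74 in NCD and 12.20, 10.62 and 10.32 in HFD, with a difference of −2.61 ± 0.76 (adjusted p = 0.091). For both, HFD1 was just above NCD1. Mmrn1, a platelet and lymphatic endothelial protein, measured 5.90, 6.10 and 6.15 in NCD and 5.68, 5.87 and 5.82 in HFD. All its values lay below the background level, where a level cannot be read, and its difference was −0.26 ± 0.10 (adjusted p = 0.157). Myct1, an endothelial membrane protein outside these roles, measured 10.38, 11.75 and 12.34 in NCD and 10.47, 9.01 and 8.68 in HFD, with a difference of −2.10 ± 0.63 (adjusted p = 0.0975).

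The other 9 members (Esam, Podxl, Ecscr, Flt1, Robo4, Erg, Dll4, Cav2 and Gpihbp1) had NCD means of 11.61 to 14.28 and HFD means of 9.61 to 13.35. Their differences ran from −2.36 to −0.47, with adjusted p values of 0.0909 to 0.438. Cav2, the partner of Cav1 in caveolae, had the smallest difference among the members above background, −0.47 ± 0.32 (adjusted p = 0.438). It measured 13.21, 13.69 and 14.54 in NCD and 13.44, 13.28 and 13.32 in HFD. The HFD pools were nearly level, unlike those of Cav1, which were parted by 0.74.

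The endothelial genes spread widely over the pools of a diet, and most of that spread lay between 1 pool and the other 2. The median SD over the 3 NCD pools was 1.19, against 0.15 over all genes, and the median over the 3 HFD pools was 0.78 against 0.11. The range over NCD exceeded 1 log2 in 31 of the 34 genes, against 6.65% of all genes, and the range over HFD in 28, against 1.65%. Without HFD1 the median HFD SD was 0.10, against 0.09 over all genes, and 0 members had an HFD range over 1 log2 (0.328% of all genes). Without NCD1 the median NCD SD was 0.38, against 0.11 over all genes, and 1 member had an NCD range over 1 log2 (1.29% of all genes). Leaving out NCD2, NCD3, HFD2 or HFD3 gave median SDs of 0.87 to 1.56 within the diet concerned. The NCD range was wider than the diet difference itself in 20 genes, and in 1 without NCD1. The NCD SD was above the HFD SD in 30 of 34, against 64.0% of all genes, and in 2 of 34 without NCD1, against 50.3%.

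**Figure D3:**
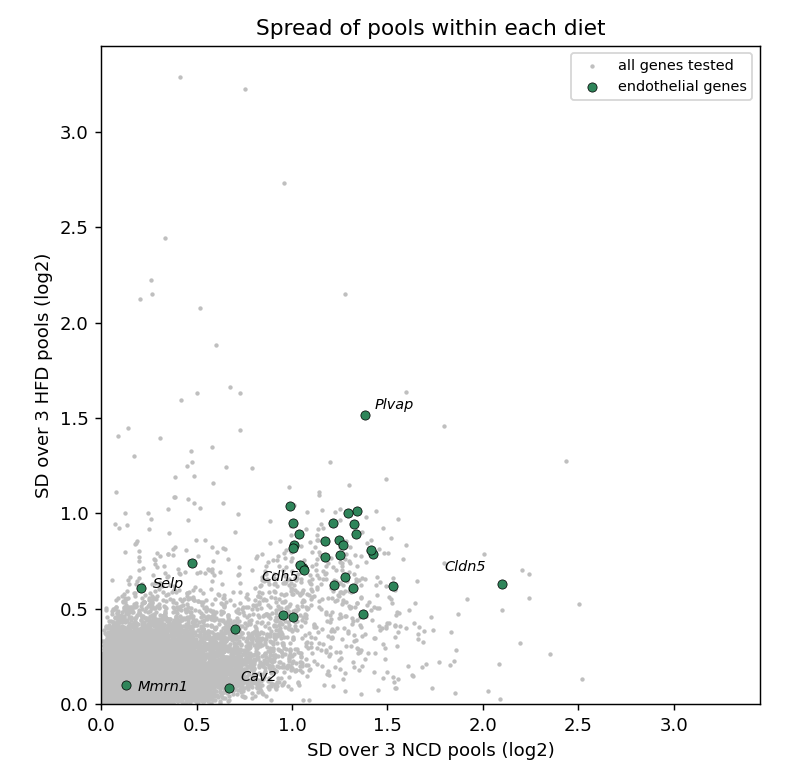
SD over the 3 HFD pools against SD over the 3 NCD pools (log2), with a point for each endothelial gene and for the genes measured in all. The endothelial genes have median SDs of 1.19 (NCD) and 0.78 (HFD), and all genes 0.15 and 0.11; without NCD1 and without HFD1 the medians of the endothelial genes are 0.38 and 0.10.

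The pools kept nearly the same order from gene to gene. NCD3 was the highest pool in 33 genes and NCD2 in 1. The lowest was HFD3 in 22, HFD2 in 9, NCD1 in 2 and HFD1 in 1. NCD1 was the lowest NCD pool in 34 of 34, against 31.2% of all genes, and HFD1 the highest HFD pool in 33, against 26.3%; the exception was Mmrn1. HFD1 lay above NCD1 in 23 genes and below it in 11, with differences from −1.04 to 1.35. NCD2 and NCD3 lay above all HFD pools in 34 of 34, against 20.0% of all genes, and HFD2 and HFD3 lay below NCD1 in 32. The order NCD3, NCD2, HFD1, NCD1, HFD2, HFD3 was shared by 13 members, and 0.985% of all genes had it. These genes share their 6 arrays and may share cells, so they are not independent observations of the pools.

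The pool means over the 34 genes held 88.7% of the within-diet sum of squares for NCD and 84.6% for HFD. After the pool means were removed, the median SD was 0.22 for NCD and 0.17 for HFD. NCD1 lay below the mean of NCD2 and NCD3 by a median of 2.01 log2 over the members, and HFD1 lay above the mean of HFD2 and HFD3 by a median of 1.34. Adipocyte markers were lowest on HFD1 (mean deviation −1.06) and mesothelial markers highest on NCD1 (1.40); their part in the spread was not tested. NCD3 had the lowest macrophage markers, with a mean deviation of −0.59 against 0.04 to 0.22 on the other pools, and Adgre1 at 15.05 against 15.93 to 16.70. It was also the pool with the most endothelial signal; the part of this in the result was not tested.

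Measured against the mean of the 34 genes, members still differed among themselves. This description subtracts each pool's member mean, so the common rise and fall of the set is removed; no test was made. Relative to it, 8 members were lower in HFD without overlap of the diets, among them Hey1 (−0.83), Vwf (−0.82), Tm4sf1 (−0.71) and Mmrn2 (−0.69), against 0.216% of all genes. In the same sense, 5 members were higher: Cav2 (1.46), Flt4 (0.78), Kdr (0.57), Cdh5 (0.44) and Eng (0.26), against 23.8% of all genes. Both shares of all genes are fixed by the subtraction, which turns a gene that did not differ between the diets into a higher one, and the members balance about their own mean; neither is a reference for the counts of members.

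**Figure D4:**
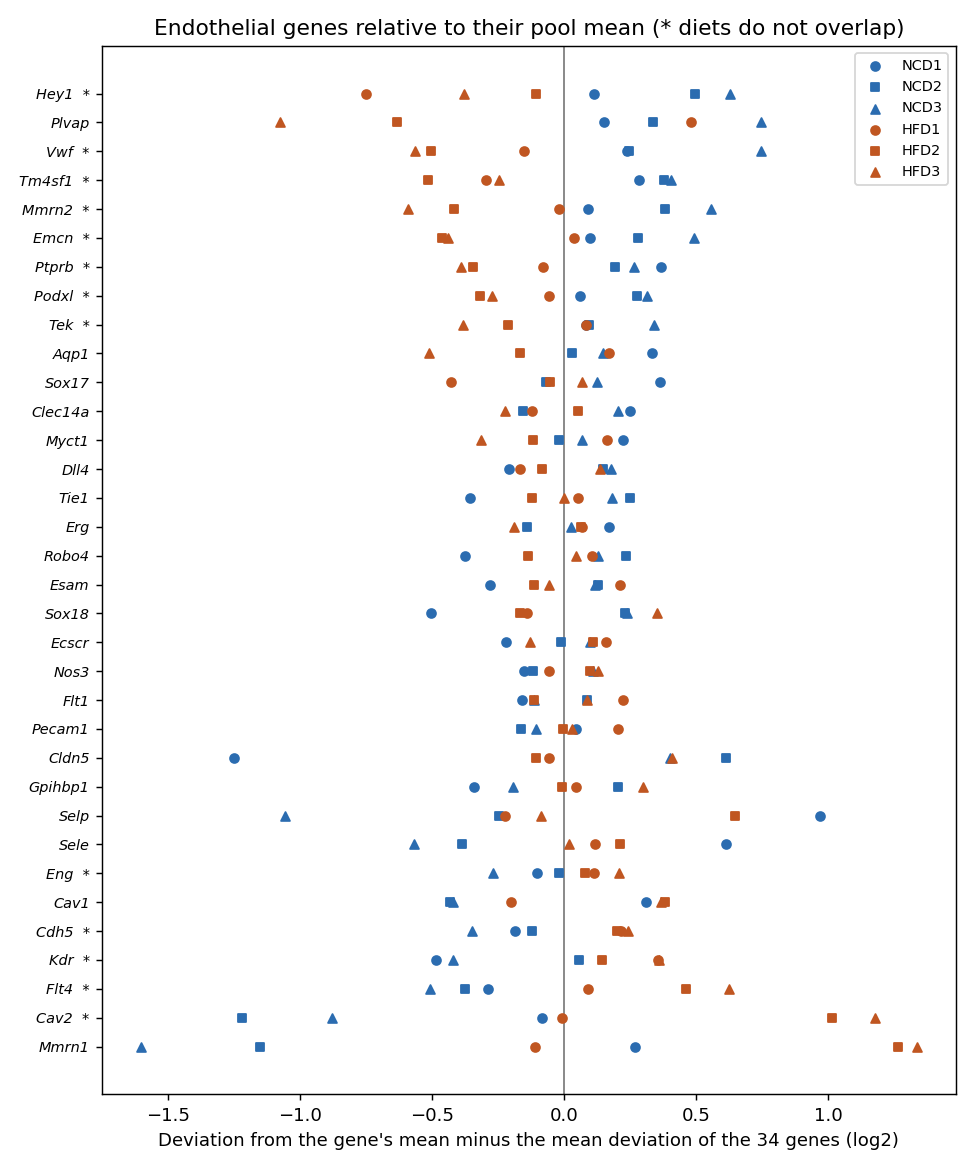
Deviation of each endothelial gene from the member mean on each pool (log2), after the gene's own mean was removed, with the diets in separate colours and the pools by shape; an asterisk marks genes whose diets do not overlap. Hey1 lies lower in HFD by 0.83 and Cav2 higher by 1.46.

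Other endothelial genes from a list of 46, of which 44 were measured, are given for comparison. Of the 44, 7 were called lower and 2 higher, against 2.87% and 4.96% of all genes, and the median difference was −1.20. Without NCD1 the lower count was 32, against 7.68% of all genes. It was 1 without NCD2 (0.524% of all genes) or HFD2 (0.415%), 2 without HFD3 (0.411%), 3 without HFD1 (1.05%) and 6 without NCD3 (2.85%). Klf2, a flow-induced transcription factor also expressed in leukocytes, measured 13.83, 14.02 and 14.05 in NCD and 12.34, 12.41 and 11.76 in HFD. It fell by 1.80 ± 0.19 (adjusted p = 0.00685). Icam2, an adhesion molecule of endothelium and leukocytes, fell by 1.20 ± 0.17 (adjusted p = 0.0122), Vcam1, a leukocyte adhesion molecule, by 2.64 ± 0.43 (adjusted p = 0.0187), and Ednrb, an endothelin receptor, by 1.38 ± 0.24 (adjusted p = 0.0225). In Klf2, which kept its call on leaving out any single pool, NCD1 was level with NCD2 and NCD3, as it was in Selp. The call of Icam2 was lost without NCD2 (adjusted p = 0.0596) or HFD2 (0.0623), that of Vcam1 without NCD2 (0.07), HFD2 (0.085) or HFD3 (0.0913), and that of Ednrb without any single pool but NCD1 or NCD3 (0.0563 to 0.0888).

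Nostrin, a trafficking protein of endothelial nitric oxide synthase, measured 10.55, 10.13 and 10.25 in NCD and 11.76, 11.77 and 11.97 in HFD. It rose in HFD by 1.52 ± 0.15 (adjusted p = 0.00522). Stab2, a scavenger receptor of sinusoidal and lymphatic endothelium, measured 6.00, 5.85 and 5.93 in NCD and 6.49, 6.58 and 6.91 in HFD and was called higher (adjusted p = 0.0209). Its NCD pools lay below the background level, and the HFD mean was 1.35-fold above that level, so the rise over NCD was at least 1.35-fold. Nostrin kept its call on leaving out any single pool, and Stab2 lost it without NCD2 (adjusted p = 0.0896), HFD2 (0.0765) or HFD3 (0.0503), so that 1 gene of the list was then called higher. Cd93 (−0.00), Cd36 (0.03) and Nrp2 (0.06), chosen after their values were seen, are endothelial genes that macrophages also express, and they were not called. They do not stand for the list, in which 39 of 44 genes, Cd93 included, had a lower mean in HFD. Klf2 and Icam2, also expressed in leukocytes, were called lower. The part of leukocyte expression in these differences was not tested.

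Among 15 ligands that act on the vessel receptors, 1 was called higher and 2 lower, against 4.96% and 2.87% of all genes. Vegfa, the ligand of Kdr and Flt1, measured 8.12, 8.09 and 7.88 in NCD and 8.68, 8.91 and 8.83 in HFD. It rose by 0.78 ± 0.12 (adjusted p = 0.0146), while Kdr and Flt1 were not called. Vegfc, the ligand of Flt4, measured 9.26, 10.65 and 11.67 in NCD and 8.31, 7.84 and 7.52 in HFD and fell by 2.64 ± 0.58 (adjusted p = 0.043). Jag1, a Notch ligand, fell by 1.64 ± 0.35 (adjusted p = 0.04). The Vegfa call was lost without NCD2, HFD2 or HFD3, with adjusted p values of 0.0603, 0.0778 and 0.0741. The Vegfc call held without NCD1 and was lost without any other single pool (adjusted p = 0.0554 to 0.167), and the Jag1 call was lost without NCD2, HFD1, HFD2 or HFD3 (0.0842 to 0.159). Without NCD1, 7 ligands were called lower, against 7.68% of all genes.

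The vessel subtype lists were small. Of all genes, 2.87% were called lower and 13.0% were lower in HFD without overlap of the diets. Arterial genes had 2 of 5 called lower, Efnb2 (−2.20 ± 0.36, adjusted p = 0.0191), an arterial ephrin, and Bmx (−1.71 ± 0.33, adjusted p = 0.0304), a kinase of arterial endothelium. All 5 had diets without overlap, 1 of them with a mean below the background level. Among genes above background, 17.5% were lower in HFD without overlap. Of 4 venous genes, Nr2f2, the transcription factor of venous identity, was called (−2.54 ± 0.51, adjusted p = 0.0336). Of 5 capillary genes, Timp4, a metalloproteinase inhibitor, was called (−2.70 ± 0.62, adjusted p = 0.049). Of 4 lymphatic genes, Lyve1, a hyaluronan receptor that resident macrophages also carry, was called (−3.05 ± 0.31, adjusted p = 0.0063), and it kept the call on leaving out any single pool. Prox1, the factor that sets lymphatic identity, lay below the background level on all 6 arrays. The Efnb2 call was lost without NCD2, HFD2 or HFD3 (adjusted p = 0.0792 to 0.0807), and those of Bmx (0.0711 to 0.128) and Nr2f2 (0.0522 to 0.14) without these or HFD1. The Timp4 call held without NCD1 and was lost without any other single pool (0.0968 to 0.172). Without NCD1 all 5 arterial, 3 of 4 venous and all 5 capillary genes were called lower, against 7.68% of all genes.

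The lists of other cell types that magnetic selection could leave behind moved in part with the endothelial genes. Of all genes, 2.87% were called lower and 4.96% higher, and without NCD1 7.68% were called lower. Of 16 smooth muscle and pericyte genes, 8 were called lower and the median difference was −2.11, with Myl9 at −4.76 ± 0.62 (adjusted p = 0.0107) and Acta2 at −4.66 ± 0.67 (adjusted p = 0.0133). The count was 14 without NCD1, 4 without HFD1, 7 without NCD3 and 0 without NCD2, HFD2 or HFD3. NCD3 had the highest mean deviation for that list too. In 11 genes HFD was lower without overlap of the diets, against 13.0% of all genes and 17.5% of those above background. Of the 16 genes, 2 had means below background. All 10 mesothelial genes were called lower (median −1.69; 5 of 10 without HFD2), 6 of them with means below background, and NCD1 had their highest mean deviation. Fibroblast and progenitor genes had 6 of 11 called higher and 0 lower, with a median of 1.35; without NCD2 3 were called and without HFD2 2. Of 6 platelet genes measured, 0 passed the test in limma (0 also at an unadjusted p below 0.05), 4 were below background and their median difference was −0.27, and of 3 red-cell genes 0 passed (0 unadjusted). Adipocyte genes had 0 of 8 called (3 unadjusted), 3 lower without NCD1 and 1 lower without NCD3. The differences between lists were not tested, and the part of these cell types in the endothelial result was not tested.

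**Figure D5:**
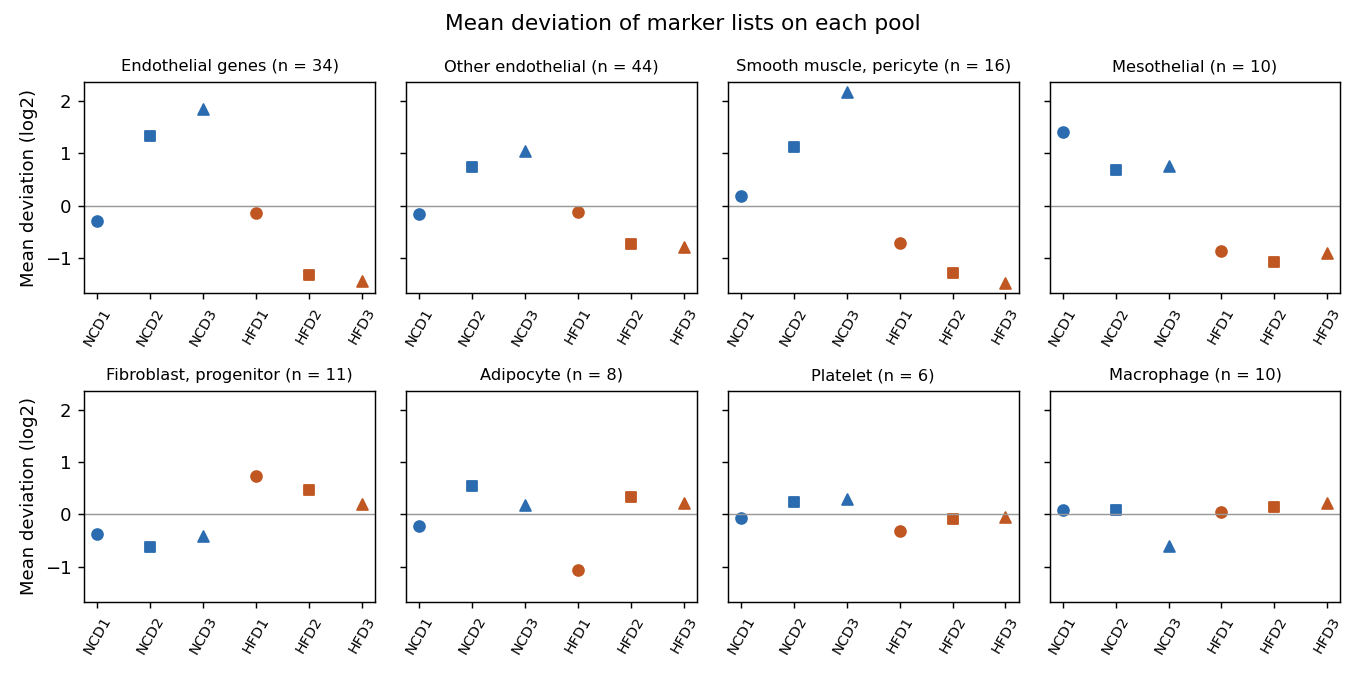
Mean deviation of gene lists on each pool (log2, from each gene's mean over the 6 arrays), for the endothelial genes, other endothelial genes and markers of other cell types, macrophages included. The endothelial genes run from 1.84 on NCD3 to −1.44 on HFD3, and the mesothelial genes from 1.40 on NCD1 to −1.08 on HFD2.

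The macrophage list itself had 2 of 10 genes called higher (Fcgr1 and Cd68) and 1 lower (Mertk), with a median difference of 0.03. Of all genes, 4.96% were called higher and 2.87% lower. Without NCD2 or HFD1 1 was called higher, without HFD2 or HFD3 0, and the Mertk call survived leaving out NCD1 but no other single pool (adjusted p = 0.0673 to 0.185). Adgre1, the gene of the selected antigen, differed by 0.91 ± 0.27 (adjusted p = 0.0924) and was called without NCD1 (0.0389) or NCD3 (0.0364), and Csf1r differed by 0.18 ± 0.18 (adjusted p = 0.628).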

How the data were processed

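RNA of 6 pools was measured on 6 arrays. The deposited table holds log2 expression made by the authors; per the submitters' processing notes, the tools were RMA, Transcriptome Analysis Console 3.1.0.5 and Affymetrix Expression Console 1.4.1.46. Their roles and options and the build are not given in the sources used here. Of 65956 clusters, 30604 carried 1 symbol; 827 symbols were updated through Entrez identifiers. The cluster with the highest mean stood for each gene, giving 30142 genes, dim ones included.

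Diets were compared with limma 3.58.1 (lmFit, eBayes with a mean-variance trend) in R 4.3.3, two-sided, Benjamini-Hochberg over all genes, called below 0.05; errors are moderated standard errors. The fit was also run on simulated data with noise drawn independently for each gene and pool. That simulation held no shared pool effects like those of the members. Pandas 2.3.3 and matplotlib 3.10.9 were used.

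Members and lists were chosen with earlier results of these data known. Pool values are given for called members, the 6 highest and lowest in level, the 6 widest in range within each diet, the 6 largest differences and defining markers. Alternatives covered leaving out pools, a replicate block, prior, weights, scaling, dim genes and cluster choice.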

Additional observations from a re-analysis of the deposited data

How the results depend on the processing

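For 33 endothelial genes the direction, HFD below NCD, was the same in all 14 alternatives, and for Mmrn1 in the 13 that tested it. In all of these 0 were called higher. The replicate block, the fits without a variance trend or with a robust prior, and the limit to genes above background leave a member's difference unchanged. So does averaging clusters, as each member had 1 cluster. The same direction in those fits was fixed in advance. The count called lower, 2 with all arrays, ran from 0 to 32 when a single pool was left out. It was 17 with array weights, a fit that called 4282 of 30142 genes in either direction, against 2359 in the main fit. It was 7 when only genes above background were tested (33 members), where 2901 of 15747 genes were called in either direction. The count was 2 without a variance trend, with a robust prior, with median centring, with quantile normalization and with all clusters of a gene averaged. These last fits called 2338 to 2663 of all genes in either direction. The median difference ran from −2.66 to −1.47 over the fits without 1 pool. The median SD within NCD ran from 0.38 to 1.56 and within HFD from 0.10 to 0.97 in those fits. With the replicate number as a block, limma called 0 members, with 18 lower at an unadjusted p below 0.05, and 144 of all genes; same-numbered pools deviated with correlations of −0.46, −0.12 and −0.15, so the numbers were not taken to pair the pools. Csf1r, 0.18 with all arrays, ran from −0.023 (without NCD3) to 0.29 (without NCD1). Array signal limits Mmrn1, below background on every array, and Sele, below it on 2. With 3 pools a diet, a p that misses the threshold does not show that levels were alike.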

Other observations

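Genes outside the 37 followed the same pool pattern. Ranked by the root mean square distance between a gene's 6 deviations and the member mean, a ranking chosen after the data were seen, the nearest were Pik3r3 (0.068 log2), a regulatory subunit of phosphoinositide 3-kinase, F11r (0.071), a junctional adhesion molecule, Fgd5 (0.076), an endothelial guanine nucleotide exchange factor, Ptprm (0.077), a receptor phosphatase of cell contacts, Ndrg1 (0.078) and Ccm2l (0.080). Of the 15 nearest, 14 were on none of the lists; Ephb4, the venous receptor of Efnb2, was the other. The members' own distances had a median of 0.26 and ran from 0.11 to 1.11, and the median over all genes was 1.25.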
